A study of Mus musculus with 2 samples.

Results

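Cells that carried RNA of both alveolar cell types were selected from 2 single-cell RNA sequencing libraries of mouse lung, and 502 of 45824 kept cells met the conditions, 33 in the *Pclaf* WT library and 469 in the *Pclaf* KO library. A kept cell had over 200 but under 5000 detected genes, with under 20% of its unique molecular identifiers (UMIs, counted molecules) from mitochondrial genes. A co-expressing cell then had to hold 5% or more of its UMIs as *Sftpc*, at least 1 UMI of *Lamp3* or *Slc34a2*, and UMIs of at least 3 of the 7 alveolar type 1 (AT1) genes *Ager*, *Hopx*, *Rtkn2*, *Akap5*, *Spock2*, *Igfbp2* and *Pdpn*. It also had to have 0 UMIs of *Ptprc*, *Pecam1* and *Col1a2*, which mark immune, endothelial and mesenchymal cells. The measured levels of these 13 genes chose the cells, so their levels below are a description and support nothing. The 4 genes that give the cells their name lie on different mouse chromosomes in GRCm38, *Sftpc* at chr14:70520949-70524081, *Ager* at chr17:34597862-34600936, *Hopx* at chr5:77086988-77115121 and *Rtkn2* at chr10:67979570-68059740.

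Alveolar type 2 (AT2) cells make and recycle surfactant, the lipid and protein film that keeps alveoli open, and act as progenitors of the alveolus. AT1 cells are thin and flat and form most of the surface over which gas is exchanged. After injury AT2 cells can divide and give rise to AT1 cells, passing through intermediate states that are known for high *Krt8* and for mixed AT2 and AT1 expression. *Pclaf* encodes a PCNA-associated protein that is expressed in dividing cells.

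Both libraries came from the lungs of mice aged 8 to 10 weeks, 1 week after bleomycin at 1.35 U/kg per the labels, a drug that injures the alveolar epithelium. One library was made from *Pclaf* WT mice and one from *Pclaf* KO mice, and in both the cells were stained for CD31, CD45 and EpCAM and sorted for the epithelial fraction before droplet capture. The WT library held 98171818 UMIs on 30669 barcodes and the KO library 111267567 UMIs on 17172 barcodes. The protocol gives 16000 cells loaded per genotype, fewer than the barcodes of either library, and what this means for the WT library in particular is not known. The median depth of kept cells was 2127 UMIs in WT and 5957 in KO. With 1 library per genotype there was no replicate, so no difference could be tested. Every interval below is a 95% interval for counting error only.

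The labels call the cells epithelial, but 13967 of 30187 kept WT cells carried at least 3 of 7 immune genes and 11731 at least 3 of 7 endothelial genes, against 691 and 631 of 15637 kept KO cells. The libraries shared 163 barcodes, 0.531% of those in WT and 0.949% of those in KO. The deleted gene checked the genotype labels only in part. *Pclaf* (ENSMUSG00000040204, chr9:65890237-65903266) had 3763 UMIs in kept WT cells, or 39.3 counts per 1000000 UMIs (CPM, 38.1 to 40.6), and 529 UMIs or 5.19 CPM (4.76 to 5.65) in kept KO cells. It was lower in the library labelled KO but not at 0.

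Within the AT2 gate, meaning cells with the *Sftpc* share, *Lamp3* or *Slc34a2*, and none of the 3 exclusion genes, the co-expressing cells were a small part in both libraries. They made up 6.10% (exact binomial interval 4.24 to 8.46) of 541 AT2-gated WT cells and 7.26% (6.64 to 7.92) of 6460 AT2-gated KO cells. The difference of 1.16 percentage points, KO minus WT, had an interval of -1.26 to 3.01 (Newcombe), which covers counting error only and includes 0. As a share of all kept cells they came to 0.109% in WT and 3.00% in KO. A rule that needs several detected genes finds more cells where more UMIs are counted, and the KO cells were deeper. With every cell thinned to 2000 UMIs, which left out 14298 WT and 2240 KO cells, the share was 2.38% (13 of 547 cells) in WT and 1.49% (97 of 6494) in KO. The difference was then -0.88 points (-2.55 to 0.15). Thinning also takes away UMIs of the exclusion genes, and 8 of these 13 WT and 90 of these 97 KO cells met the rule at full depth.

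Most AT2-gated cells had exactly 1 of the 7 AT1 genes, 341 of 541 in WT and 4378 of 6460 in KO. All 7 were found in 1 WT and 3 KO cells. At the edge of the *Sftpc* condition, 29 KO cells with 5 to 6% of UMIs as *Sftpc* (median 5.54%) were counted as co-expressing and 20 with 4 to 5% (median 4.47%) met every other condition. In WT no cell lay between 5 and 6%, and 1 cell lay at 4.82%. Cells that met the other conditions but had a UMI of *Ptprc*, *Pecam1* or *Col1a2* numbered 34 in WT and 58 in KO, and were left out.

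*Ager*, which encodes a membrane receptor that is abundant on AT1 cells, was found in 100% of co-expressing cells in both libraries. It was found also in 83.3% of WT and 91.7% of KO AT2-only cells, defined as AT2-gated cells with 0 or 1 of the 7 AT1 genes, so the other 6 genes did most of the selecting. *Hopx*, a homeodomain protein without DNA binding of its own, was detected in 84.8% of WT and 81.2% of KO co-expressing cells. *Akap5*, a kinase anchor protein, was detected in 63.6% and 73.6%. *Pdpn* (podoplanin, an AT1 surface glycoprotein), *Igfbp2*, *Rtkn2* and *Spock2* were each detected in 13.0 to 34.3% of them in either library. The commonest combination was *Ager* with *Hopx* and *Akap5* and no other AT1 gene, in 11 of 33 WT (33.3%) and 154 of 469 KO cells (32.8%).

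The AT1 RNA in a single cell was scarce. The median co-expressing cell had 3 UMIs of the 6 AT1 genes other than *Ager* in both libraries, and 39.4% of WT and 33.9% of KO cells had only 2. The most in any cell was 102 in WT and 82 in KO, so a few cells held AT1 RNA in quantity. The *Sftpc* share ran from 6.17 to 22.1% in WT with a median of 12.2%, and from 5.09 to 29.4% in KO with a median of 13.6%. It overlapped that of AT2-only cells, whose medians were 13.7% and 16.6%.

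**Figure D1:**
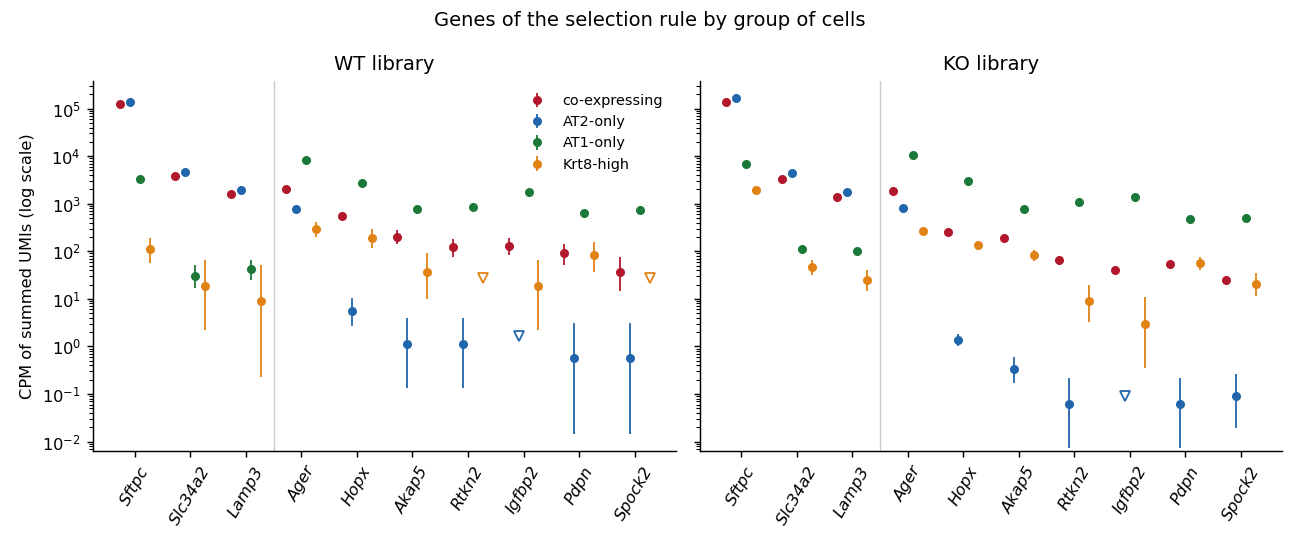
Levels of the rule's AT2 genes (left of the grey line) and 7 AT1 genes (right) in co-expressing, AT2-only, AT1-only and Krt8-high cells of each library, as CPM of summed UMIs on a log scale with exact Poisson intervals. Open triangles mark the level that 3 UMIs would give in a group where none was found. Co-expressing cells lie beside AT2-only cells for *Sftpc*, *Slc34a2* and *Lamp3* and below AT1-only cells for every AT1 gene.

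Summed over cells, the level of *Ager* in co-expressing cells was 2014 (WT) and 1864 CPM (KO). AT1-only cells, which had at least 3 of the 7 genes, *Ager* at 0.2% or more of UMIs and *Sftpc* under 5%, had 8224 and 10800 CPM (210 and 517 cells). *Hopx* stood at 557 (WT) and 257 CPM (KO), against 2682 and 2961 CPM in AT1-only cells. *Rtkn2* was at 122 and 64.8 CPM against 869 and 1065 CPM. All 7 AT1 genes of the rule were thus below their AT1-only level in both libraries. In WT 1 cell held 102 UMIs of the 6 AT1 genes other than *Ager*, where *Hopx* had 105 and *Rtkn2* 23 over all 33 cells. The summed WT level of the 6 genes therefore leans on that cell. The plot of the rule's genes also shows the Krt8-high cells (20 WT and 96 KO), with *Krt8* at 0.2% or more of UMIs, *Cldn4* detected, and low *Sftpc* and *Ager*.

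AT1 genes that the rule did not use were also higher in co-expressing than in AT2-only cells. Of 24 listed, the 20 with at least 50 UMIs over both groups in WT included 14 that were 2-fold or more higher and none 2-fold lower, with a median log2 ratio of 1.18. In KO all 24 could be compared, 19 were 2-fold or more higher and none lower, with a median of 1.30. Over all genes compared, 3.67% were 2-fold or more higher and 5.17% lower in WT, and 7.04% higher and 0.748% lower in KO, with medians of 0.06 and 0.18. Counting intervals lay above 0 for 414 genes and below 0 for 188 in WT, and for 4030 and 726 in KO. In WT the intervals and the 2-fold split thus ran opposite ways. The 2-fold splits depend on the scaling. With TMM factors, which align the bulk of genes, 88 were higher and 401 lower in WT, in place of 184 and 259. In KO 661 were higher and 163 lower, in place of 848 and 90. With TMM the AT1 genes 2-fold or more higher came to 9 of 20 in WT and 14 of 24 in KO. AT1 genes are expressed together in AT1 cells, so this list is not independent of the genes that chose the cells.

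*Clic5*, a chloride intracellular channel family member, was at 228 CPM in co-expressing against 65.3 CPM in AT2-only WT cells, and at 206 against 38.4 CPM in KO. Its log2 ratio was 1.80 (1.26 to 2.32) in WT and 2.42 (2.30 to 2.55) in KO. The level of *Col4a3*, a basement membrane collagen chain that AT1 cells make, was 212 against 41.3 CPM in WT and 111 against 41.4 CPM in KO. These levels stayed far below those of AT1-only cells, where *Clic5* was at 2130 (WT) and 1720 CPM (KO) and *Col4a3* at 872 and 992 CPM. *Vegfa*, the growth factor that AT1 cells supply to alveolar capillaries, had log2 ratios of 1.51 and 1.30. The water channel *Aqp5* and the tight junction gene *Cldn18*, both found in AT2-only cells as well, had smaller ratios of 0.95 and 0.86 in WT and 0.71 and 0.89 in KO. *Limch1* had the lowest ratio of the list, 0.51 in WT and 0.33 in KO.

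Most AT2 genes outside the rule were a little lower than in AT2-only cells, and none was 2-fold higher or lower. The median log2 ratio of 20 AT2 genes was -0.29 in WT and -0.37 in KO. The surfactant protein gene *Sftpa1* was at 13041 against 17373 CPM in WT (log2 -0.41) and 14485 against 20175 CPM in KO (-0.48). *Lyz2*, lysozyme, had -0.60 and -0.69, and *Abca3*, the lipid transporter of the organelle that stores surfactant, had -0.14 and -0.39. *Sftpd* was level with AT2-only cells, at -0.04 and 0.02. *Lyz1* went different ways, at 1.00 in WT (just under 2-fold) and -0.30 in KO. Placed on a linear scale from the AT2-only to the AT1-only level, the co-expressing cells stood a median of 13.5% of the way for AT1 genes in WT and 9.96% in KO. For the loss of AT2 genes they stood 19.2% and 25.2% of the way.

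**Figure D2:**
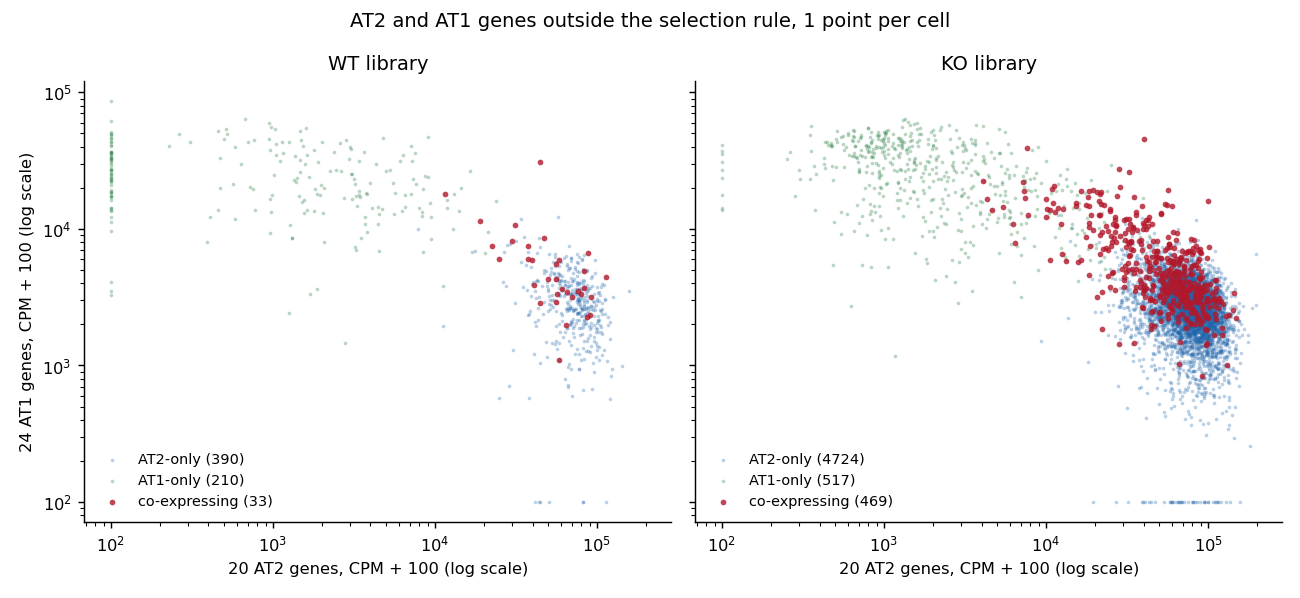
Summed CPM of 20 AT2 genes (x axis) and 24 AT1 genes (y axis) outside the rule in each co-expressing, AT2-only and AT1-only cell, with 100 CPM added and both axes on a log scale. Co-expressing cells lie at the right within and above the AT2-only cloud, with medians of 4225 (WT) and 4421 CPM (KO) of AT1 genes against 2791 and 2549 CPM in AT2-only cells, and their highest cells (30741 and 45615 CPM) pass the AT1-only medians of 22458 and 25862 CPM.

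The level of AT1 genes differed widely between single co-expressing cells, and the part of counting error in this was not tested. The summed level of the 24 AT1 genes ran from 992 to 30741 CPM per cell in WT, with a median of 4225, and from 734 to 45615 CPM in KO, with a median of 4421. AT1-only cells had medians of 22458 and 25862 CPM. In WT 1 cell held 24.2% of all UMIs of this list, and without it the summed level was 5326 in place of 6658 CPM. Across the co-expressing cells the share of AT2 genes and the share of AT1 genes went in opposite directions (Spearman correlation -0.64 over 33 WT and -0.64 over 469 KO cells). Both are shares of the same UMIs, so a rise in one lowers the other, and no p-value was attached.

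Cells with more of the 7 AT1 genes had more of the other AT1 genes and less of the AT2 genes, in steps. From 0 or 1 through 2 and 3 to 4 or more genes detected, the summed level of the 24 AT1 genes went 3087, 3529, 5049 and 11099 CPM in WT, and 2776, 3280, 4913 and 8124 CPM in KO. The 20 AT2 genes went 75303, 72693, 59311 and 54659 CPM in WT, and 80915, 73522, 61107 and 53228 CPM in KO. The steps held 390, 118, 25 and 8 cells in WT, and 4724, 1267, 328 and 141 in KO. Median depth went 4594.5, 5331, 5039 and 6081 UMIs in WT, and 6665, 8000, 8926.5 and 10084 in KO. The doublet caller Scrublet marked 2.05, 4.24, 0 and 0% of the cells in WT, and 0.889, 2.92, 3.35 and 5.67% in KO. What part depth and doublets had in the steps was not tested. The last WT step rested on 1 cell, which had all 7 genes and 304 of the 557 UMIs of the AT1 list there, and without it the level was 6279 CPM. Cells one gene short of the rule were thus closer to AT2-only cells than to the co-expressing cells in both lists.

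**Figure D3:**
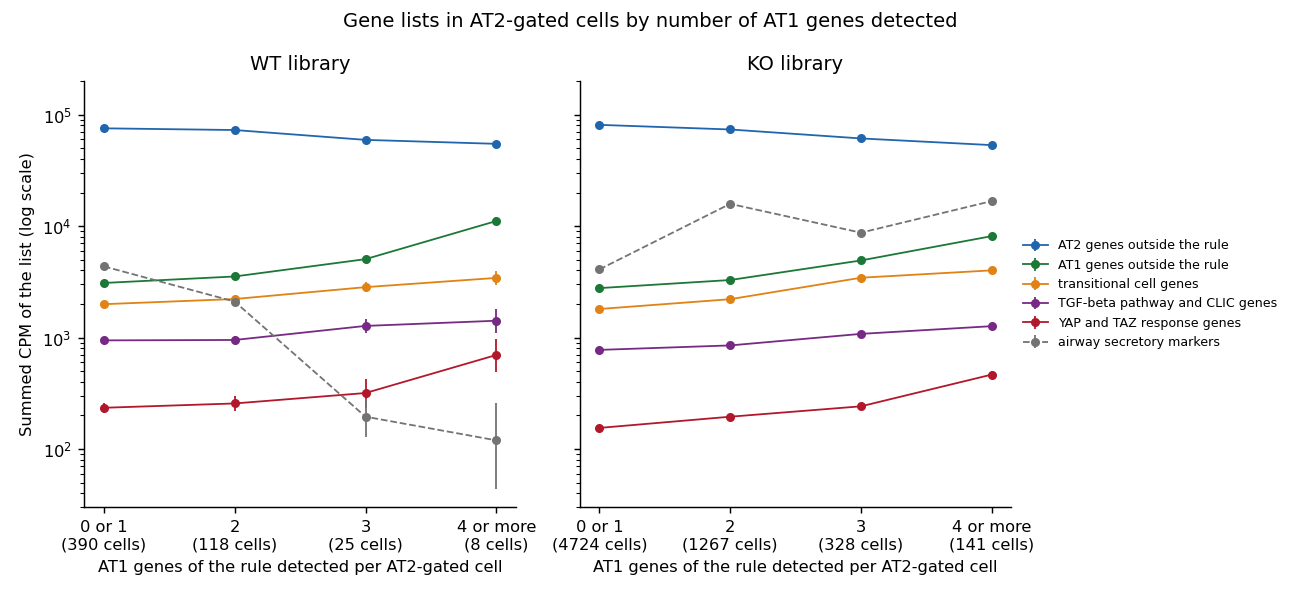
Summed CPM (log scale, exact Poisson intervals) of 6 gene lists in AT2-gated cells, by how many of the rule's 7 AT1 genes a cell had (x axis, with the number of cells), in each library. AT1, transitional and YAP and TAZ lists climb from left to right and AT2 genes decline, while the airway secretory list declines in WT and goes up and down in KO.

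Genes of the transitional state between AT2 and AT1 cells were mostly 2-fold or more higher in KO co-expressing than in KO AT2-only cells, and a minority were in WT. Of 20 listed genes, 4 of the 14 compared in WT were 2-fold or more higher and 1 lower, with a median log2 ratio of 0.76, and 12 of the 14 ratios were above 0. In KO 15 of 20 were higher and none lower, with a median of 1.32. Beside AT1-only cells the list was mostly lower. There 13 of 14 genes compared in WT and 15 of 19 in KO were 2-fold or more lower and none higher, with medians of -2.25 and -1.82. The libraries differ in the number of UMIs behind these values, 188641 over all co-expressing cells in WT and 4586088 in KO, and whether the genotypes differ was not tested.

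*Krt8*, a keratin of simple epithelia and the name gene of the transitional state, was at 451 CPM in co-expressing and 241 CPM in AT2-only WT cells (log2 0.90, 0.55 to 1.24). In KO it was at 475 and 201 CPM (1.24, 1.17 to 1.31). Krt8-high cells had 3566 and 3622 CPM and AT1-only cells 909 and 930 CPM, so co-expressing cells had less *Krt8* than either. Krt8-high cells were gated on *Krt8* at 0.2% or more of UMIs, so the gap to them was set in part by the gate. Its partner keratin *Krt18* had log2 ratios of 1.08 and 1.15, and *Krt19* 1.28 and 2.20. *Itgb6*, an integrin subunit that activates TGF-β, had 1.99 in WT and 2.35 in KO. *Nupr1*, a stress response gene, was lower at -0.88 in WT and -0.22 in KO. For *Sprr1a* the WT co-expressing cells held 1 UMI (log2 -3.52) and the KO cells 259 UMIs (2.62). *Cldn4*, a tight junction gene of transitional cells, had 2 UMIs in WT and 59 in KO. *Fn1* was at 0.55 and -0.04.

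**Figure D4:**
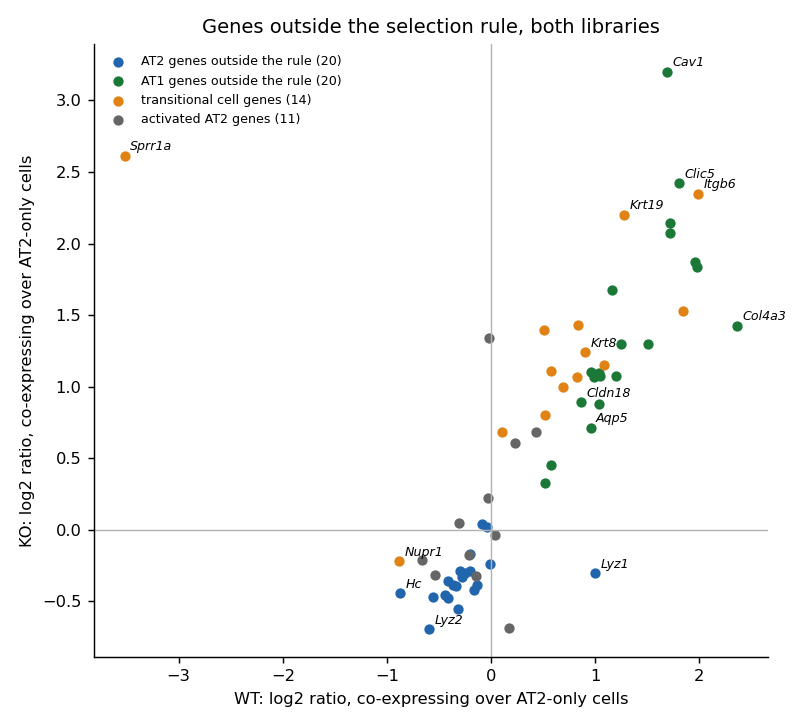
Log2 ratio of co-expressing over AT2-only cells in WT (x axis) and KO (y axis) for each gene with at least 50 UMIs in both libraries of 4 lists outside the rule. AT1 genes lie in the upper right, AT2 genes near or just below 0 with *Lyz1* to the right, transitional genes mostly in the upper right with *Nupr1* and *Sprr1a* to the left, and activated AT2 genes around 0.

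YAP and TAZ are the transcriptional coactivators that respond to stretch and cell shape and are needed for AT1 fate. Of their response genes, none of the 4 compared in WT and 6 of 10 in KO were 2-fold or more higher, with medians of 0.50 and 1.41. *Ctgf* rested on 5 UMIs in WT and on 87 in KO, where its log2 ratio was 2.71. *Tgfb2* had 8 UMIs in WT and 141 in KO, at 42.4 and 30.7 CPM, against 0.558 and 1.22 CPM in AT2-only cells. *Cyr61* was at -0.31 in WT and 1.32 in KO. Of the TEAD family, their DNA-binding partners, *Tead1* was at 1.14 and 0.63. Beside AT1-only cells, 4 of 5 YAP and TAZ response genes in WT and 8 of 10 in KO were 2-fold or more lower, with medians of -3.15 and -2.28.

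Among 17 genes of the TGF-β pathway and the CLIC family, 2 of 11 compared in WT and 3 of 16 in KO were 2-fold or more higher and none lower, with medians of 0.48 and 0.20. The level of *Clic4* was the same as in AT2-only cells within counting error, at 196 against 199 CPM in WT (log2 -0.02, -0.55 to 0.47) and 111 against 117 CPM in KO (-0.07, -0.21 to 0.07). *Clic3* was higher at 1.53 and 1.37. *Tgfbr2*, a receptor subunit, had 0.49 and 0.37.

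Genes of activated, inflammation-primed AT2 cells were near their AT2-only level, with none of 11 in WT and 2 of 14 in KO 2-fold or more higher and medians of -0.03 and 0.09. *Lcn2*, an iron-binding acute phase gene, was at 1225 against 1777 CPM in WT and 1383 against 1725 CPM in KO. The pair past 2-fold in KO were *Ifitm3* at 1.34 and *Orm1* at 1.05, and with cells carrying airway genes removed 0 of 14 were past it. Of the lineage transcription factors, *Nkx2-1*, the master factor of lung epithelium, was at 477 against 412 CPM in WT and 340 against 337 CPM in KO, and *Cebpa*, a factor of AT2 identity, had log2 ratios of -0.65 and -0.64. In this list 1 of 16 compared in WT (*Tead1*) was 2-fold or more higher and 1 lower (*Elf3*, 3 UMIs). In KO 1 of 17 was higher (*Sox2*, an airway factor, 31 UMIs). The KO count came to 0 of 16 without cells carrying airway genes and also without the cells that the doublet caller Scrublet marked. With TMM factors 0 of 16 were higher and 2 lower in WT, and 1 of 17 was higher in KO. Of p53 target genes 1 of 7 in WT and 2 of 12 in KO were 2-fold higher, with medians of 0.47 and 0.54. The WT call was lost (0 of 7) with TMM factors, without cells that Scrublet marked and without cells carrying airway genes. It was lost also with mitochondrial, ribosomal protein and rule genes left out of the denominator. With that denominator and with TMM the KO count was 1 of 12. The cell cycle inhibitor *Cdkn1a* was at 0.52 and 0.80. Nuclear RNAs such as *Malat1*, which mark damaged cells that have lost cytoplasm, had medians of -0.11 and 0.07 and none of 5 was past 2-fold in either library. Beside AT1-only cells, 7 of 8 p53 target genes in WT and 9 of 12 in KO were 2-fold or more lower, with medians of -1.51 and -1.42.

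Cell cycle genes were higher in KO co-expressing cells and mostly too rare to compare in WT. Of 18 listed, 12 were 2-fold or more higher in KO with a median log2 ratio of 2.05. *Mki67*, found in dividing cells, was at 54.1 against 13.7 CPM (1.98, 1.75 to 2.21), and the topoisomerase *Top2a* at 51.2 against 9.71 CPM (2.40). In WT 3 genes could be compared, 1 was 2-fold higher, and the whole list had 130 UMIs. The KO ratio was smaller with at least 4 of the 7 AT1 genes required, at a median of 1.07 (10 of 18 higher). In WT the median was then -1.37 (2 of 3 lower), over only 8 co-expressing cells. From 3 to 4 or more AT1 genes the summed level of the list went from 938 to 625 CPM in KO. In WT it went from 852 CPM (705 to 1021) in 25 cells to 239 CPM (124 to 418) in these 8 cells. The level lay mostly in few cells. Counted by cell, 3 of 33 WT (9.09%, 1.92 to 24.3) and 40 of 469 KO co-expressing cells (8.53%, 6.16 to 11.4) had at least 5 of the 18 genes, against 15 of 390 and 152 of 4724 AT2-only cells. The 40 KO cells were at 4511 CPM of the list that marked them, and the 395 KO co-expressing cells with neither these nor airway genes were at 358 CPM (338 to 378), against 314 CPM (308 to 321) in the 4416 such AT2-only cells. These KO cells had a median of 12258.5 UMIs, above the 9208 of all KO co-expressing cells, and Scrublet marked 0 of the 40. After thinning to 2000 UMIs, 2 of 31 WT (6.45%) and 31 of 467 KO co-expressing cells (6.64%) had at least 3 of the genes, against 5.18% and 3.36% of AT2-only cells.

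*Pclaf* itself was found in 4 WT and 19 KO co-expressing cells. The 10 UMIs in WT placed its level between 25.4 and 97.5 CPM, and the 74 UMIs in KO gave 16.1 CPM (12.7 to 20.3), against 8.93 and 3.20 CPM in AT2-only cells. The log2 ratio of KO over WT in co-expressing cells was -1.72 (-2.68 to -0.60). All 3 of the WT cells with at least 5 cell cycle genes had a *Pclaf* UMI, and 16 of the 40 KO cells (40.0%) did. Most co-expressing cells with a *Pclaf* UMI, 3 of 4 in WT and 16 of 19 in KO, were thus cells with several cell cycle genes.

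Among 450 genes outside the rule with at least 50 UMIs in the co-expressing cells of each library, those most above AT2-only cells in both were *Ndnf*, *Sparc*, *Clic3*, *S100a6*, *Anxa1*, *Igfbp7*, *Anxa5* and *Msn*. *Ndnf*, a secreted factor, was at 403 against 123 CPM in WT (log2 1.71) and 354 against 89.0 CPM in KO (1.99). *Sparc*, a matrix-binding glycoprotein, had 1.46 and 1.44, and the calcium-binding *S100a6* had 1.34 and 2.59. The membrane-binding annexin *Anxa1* had 1.27 and 1.80. The genes most below AT2-only cells were *Tmem164*, *Fabp5*, *Cpm*, *Lyz2*, *Acoxl*, *Selenop*, *Cd36* and *Fasn*. Of these *Fabp5* and *Cd36* handle fatty acids and *Fasn* makes them, a need of surfactant production. *Fabp5* had log2 ratios of -0.64 and -0.60, *Cd36* -0.49 and -0.55, and *Fasn* -0.56 and -0.47.

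A mixture of the other groups would lie between them, so genes above or below all 3 of AT2-only, AT1-only and Krt8-high cells were counted. In WT 27 of 6277 genes (0.43%) were 2-fold or more above the highest of the 3, in KO 155 of 12376 (1.25%), and 0 of the 6272 compared in both libraries were so in both. At 1.5-fold, 3 genes were above in both. Genes 2-fold or more below all 3 numbered 200 in WT (3.19%) and 30 in KO (0.242%). None of the AT2, AT1, transitional or activated AT2 genes was 2-fold above all 3 groups in either library. In KO 9 of 18 cell cycle genes and 8 of 9 airway secretory genes were. Genes with at least 50 UMIs in the co-expressing cells of each library (450) were ranked by their distance above all 3 groups in both. First was *Stmn1* (log2 0.51 in WT and 0.43 in KO), a microtubule regulator and 1 of the 18 listed cell cycle genes. Then came *Lrrc8c* (0.61 and 0.23), a volume-regulated channel subunit, and *Ctsh* (0.15 and 0.18), a protease that processes surfactant proteins. *Ptprf*, *Cacna1c*, *Myo1e*, *Selenbp1* and *Chchd10* followed, each at 0.15 or less in KO. In WT the counting interval over the highest group lay above 0 for *Stmn1* (0.07 to 0.92), *Lrrc8c* and *Cacna1c*. It included 0 for *Ctsh* (-0.17 to 0.47), *Ptprf*, *Myo1e*, *Selenbp1* and *Chchd10*.

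Between the genotypes, the lists that describe the co-expressing cells differed little in their medians. The median KO over WT ratio on the log2 scale was -0.09 for AT2 genes, -0.26 for AT1 genes, 0.28 for transitional genes and -0.09 for lineage factors, against -0.02 over all 8274 genes compared. With 4 AT1 genes required, which left 8 WT cells, 5 of 24 AT1 genes were 2-fold or more lower in KO (median -0.40), in place of 0. Of transitional genes 5 of 15 were then higher (median 0.30), in place of 2 of 17. In these 8 WT cells 1 cell held 304 of the 557 UMIs of the AT1 list. Leaving it out took the WT sum from 11099 to 6279 CPM, below the KO sum of 8124 CPM. Over all co-expressing cells the same step took the WT sum from 6658 to 5326 CPM, where the KO sum was 5944 CPM. The direction of both sums thus turned on that cell, and the AT1 medians were not tested without it. Cell cycle genes had a median of 0.64 over 17 genes, with counting intervals above 0 for 2 and below 0 for 2. The whole list had 130 UMIs in WT, so this median cannot say whether the genotypes differ. In AT2-only cells the median of the list was -0.54. YAP and TAZ response genes were at -0.46 over 9 genes, with 0 intervals above 0 and 1 below, and at -0.76 in AT2-only cells. Over all genes compared 13.1% were 2-fold or more higher and 4.27% lower in KO, 1085 and 353 genes, and with TMM factors 1287 and 209, with a median of 0.15 in place of -0.02. Counting intervals ran the other way, above 0 for 202 genes and below 0 for 420. The minimum of 50 UMIs was over both libraries together. KO cells, with 4586088 UMIs against 188641 in WT, could reach it alone. Lists of other cell types had the widest gaps, with all 9 airway secretory genes 2-fold or more higher in KO (median 4.48) and 5 of 7 ciliated genes (2.81), where 7 and 5 of these genes had 0 UMIs in WT and the sizes depend on the 0.5 UMIs added, and 3 of 3 hemoglobin genes lower (-7.38). The KO airway secretory UMIs lay mostly in 5 cells and the WT hemoglobin UMIs almost all in 1 cell, as given below. The ciliated list had a like gap in AT2-only cells (5 of 7, median 2.99), and with cells carrying airway genes removed 1 ciliated gene could be compared in co-expressing cells, at -0.97. Ciliated genes were among those that marked the removed cells, so this change was set in part by the removal. With 4 AT1 genes required 1 could be compared as well, at -1.37. Single genes were ranked among the 450 outside the rule with at least 50 UMIs in the co-expressing cells of each library, which leaves out genes that were rare in either. *Mgp*, an inhibitor of calcification, had the lowest ratio of these, from 350 to 110 CPM (-1.66, -2.04 to -1.27), and it differed as much in AT2-only cells (-1.52). The early stress genes *Hspa1a* (-1.24), *Atf3* (-1.13) and *Hspa1b* (-1.06) were lower in KO as well, and in AT2-only cells they were at -0.63, -0.69 and -0.92. *Clic4* was at -0.82 (-1.30 to -0.30), and at -0.77 in AT2-only cells. The highest ratios were those of *Gm10076* (0.84), *Gm26561* (0.76), *Mgst1* (0.57), a glutathione transferase, and *Lgals3* (0.55, 0.15 to 0.98), a lectin of the transitional list that went from 270 to 396 CPM. In AT2-only cells these were at 0.79, 0.96, -0.04 and -0.33 in the same order. Each of these rests on 1 library a genotype, and genotype, animals and library preparation cannot be told apart.

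Genes of other cell types moved with some of these results. The KO co-expressing cells had 11300 CPM of 9 airway secretory genes against 4084 CPM in AT2-only cells, led by *Scgb1a1* with 43085 UMIs, the secretoglobin of club cells, and all 9 were detected. The top 5 cells held 80.5% of these UMIs, and the median cell had 1101 CPM against 1183 CPM in AT2-only cells. The 7 ciliated genes were at 247 against 50.4 CPM, led by *Dynlrb2*. Either set marked 37 KO cells (7.89%, 5.62 to 10.7): 16 with 0.5% or more of UMIs from *Scgb1a1*, *Scgb3a1* and *Bpifa1*, and 22 with at least 3 ciliated genes. No WT cell was so marked, which with 33 cells allows a share of up to 10.6%. With cells so marked removed from every group, among them 158 KO and 10 WT AT2-only cells, the KO counts for AT1, transitional and YAP and TAZ genes were as before (19 of 24, 15 of 20 and 6 of 10), cell cycle genes came to 13 of 18, the genes 2-fold above all 3 groups came to 94, and activated AT2 genes and lineage factors came to 0 of 14 and 0 of 16, in place of 2 and 1. In WT, where no co-expressing cell was removed, AT1 genes came to 13 of 20 and transitional genes to 3 of 13.

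In WT co-expressing cells the airway secretory genes were at 175 CPM against 4348 CPM in AT2-only cells, and 7 of the 9 were at 0. The AT2-only level lay in 10 of the 390 cells, and the other 380 were at 264 CPM. Hemoglobin genes, which mark red cells, were at 1325 CPM against 71.4 CPM, and 1 cell held 248 of the 250 UMIs. In KO they were at 8.29 against 27.4 CPM. Endothelial and immune lists, whose genes *Pecam1* and *Ptprc* the rule holds at 0, were at 138 and 233 CPM in WT and 39.0 and 12.0 CPM in KO. The mesenchymal list was at 207 and 132 CPM, led by *Col6a1*. Basal cell genes had 0 UMIs in WT, where the floor of 3 UMIs would give 15.9 CPM, and 10 in KO. Mesothelial genes had 0 in WT and 30 in KO, led by *Msln*. What part these RNAs had in the other values was not tested beyond the removal of airway-marked cells from every group.

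Whether a co-expressing cell was one cell or a droplet with an AT2 and an AT1 cell was examined first by depth. A droplet with an average cell of each kind would hold the sum of their UMIs. The median co-expressing cell had 5207 UMIs in WT, 1.13 times the AT2-only median of 4594.5, where AT2-only and AT1-only medians summed to 5524.5, since WT AT1-only cells had a median of 930 UMIs. In KO it had 9208 UMIs, 1.38 times the AT2-only median of 6665, where the sum was 11565. The rule itself picks deeper cells, so cells were also chosen after thinning to 2000 UMIs. Their median full depth was then 1.01 times that of AT2-only cells in WT (5379 and 5302 UMIs) and 1.20 times in KO (8794 and 7304.5 UMIs), with sums of 10029.5 and 13077. Cells under 2000 UMIs could not enter, and 60 of the 210 WT and 388 of the 517 KO AT1-only cells had that many. The AT1-only median in WT was 4727.5 UMIs after this step in place of 930, which took the sum from 5524.5 to 10029.5, so the sums before and after are not alike.

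**Figure D5:**
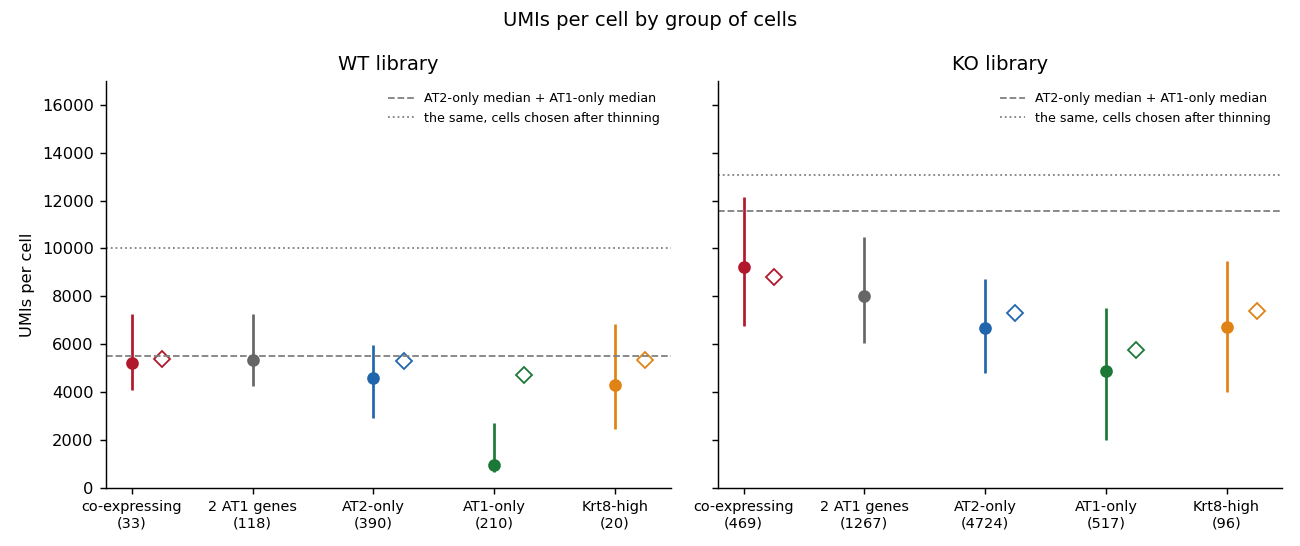
Median UMIs per cell (filled points, bars from the lower to the upper quartile) in 5 groups of cells of each library, with the number of cells in brackets, and the full depth of cells chosen after thinning to 2000 UMIs (open diamonds). Dashed and dotted lines are the AT2-only and AT1-only medians added together. Dotted lines are at 10029.5 and 13077 UMIs and use only AT1-only cells with 2000 UMIs or more, which sets the WT line far above the dashed one at 5524.5, and the open diamonds of co-expressing cells lie at 5379 and 8794.

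Scrublet marked 0 of 33 WT (upper limit 10.6%) and 19 of 469 KO co-expressing cells (4.05%, 2.46 to 6.25), against 2.05% and 0.889% (0.641 to 1.20) of AT2-only cells. Of the 19, 14 were among the 37 cells with airway genes. Without airway-marked cells it marked 5 of 432 KO co-expressing (1.16%) and 24 of 4566 AT2-only cells (0.526%). Over all kept cells it marked 2642 of 30187 in WT and 422 of 15637 in KO, where a rate that grows with the number of kept cells gives 24.1% and 12.5%. Those rates rest on more cells than the 16000 stated as loaded in WT, so the WT rate is uncertain. The score behind the calls had its highest median in co-expressing cells in both libraries. In WT it was 0.203, against 0.174 in AT2-only, 0.164 in AT1-only and 0.186 in Krt8-high cells. In KO it was 0.150, against 0.119, 0.085 and 0.069. What raised the score was not tested.

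Overlaps of AT2 RNA with cell types that should lack it were measured beside it. Without the exclusion genes, 7.02% (5.48 to 8.82) of WT and 34.9% (32.5 to 37.4) of KO cells with at least 3 of the 7 AT1 genes met the AT2 conditions. In KO the same share was 7.20% (5.84 to 8.77) for cells with 3 of 7 ciliated genes, 8.19% (7.24 to 9.22) for mesenchymal, 13.2% (10.7 to 15.9) for immune and 14.7% (12.1 to 17.7) for endothelial genes. In WT those shares were 1.77%, 1.11%, 0.924% and 1.10%. These sets are not alike, since *Ager* is one of the 7 AT1 genes and was found in most AT2-only cells, so that an AT2 cell needs only 2 more of them. Taken as shares of all AT2 cells the order differed. In WT 8.76% of 765 such cells had 3 AT1 genes, and 16.9% had 3 endothelial and 16.9% had 3 immune genes. In KO the figures for 7046 cells were 7.48%, 1.32% and 1.29%. For mesenchymal genes the shares were 5.23% in WT and 3.56% in KO, and for ciliated genes 0.523% and 1.29%. *Hopx* was detected in 75.7% of KO ciliated cells, so not all of the 7 genes are particular to AT1 cells. The others were detected in 1.10% (*Rtkn2*) to 24.2% (*Igfbp2*) of these cells.

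RNA set free from broken cells enters every droplet. *Sftpc* was detected in 98.1 to 99.8% of KO ciliated, endothelial, immune and mesenchymal cells, and in 32.4 to 44.0% of the same WT cells. It was a median of 0.110 to 0.191% of their UMIs in KO, and 1% or more in 2.02 to 6.67% of them. These KO sets held 1090, 525, 575 and 2704 cells, fewer than the 1264, 631, 691 and 3065 with 3 marker genes above. Most of the cells above that met the AT2 conditions cannot be among them, since those conditions ask for *Sftpc* at 5% or more. The 5% of the rule lay above these medians, but cells with much *Sftpc* were largely left out, so the medians cannot place the rule against free RNA. The AT1 genes were compared over all AT2-gated cells, whatever their number of AT1 genes, so that cells were not chosen by these genes. In AT2-gated cells *Ager* was at 908 (WT) and 960 CPM (KO), against 14.0 to 22.6 and 34.7 to 76.8 CPM in the 4 other cell types. *Akap5* was at 27.1 CPM in both libraries, against 3.12 to 8.49 and 3.20 to 5.75 CPM. *Rtkn2* was at 10.9 and 8.21 CPM, against 1.76 to 3.90 and 1.26 to 1.58 CPM. The co-expressing cells held 52.8% (WT) and 67.0% (KO) of these *Akap5* UMIs and 15.7% and 18.5% of those of *Ager*, and all but 6 (WT) and 99 (KO) of those of *Rtkn2*. In the AT2-gated cells that were left, *Ager* was at 824 and 865 CPM, *Akap5* at 13.8 and 9.89 CPM and *Rtkn2* at 2.43 and 2.27 CPM, the last within the range of the other cell types in WT. The cells taken out were those with at least 3 of the 7 AT1 genes, so these shares and remaining levels were set in part by the rule. They cannot tell free RNA from expression.

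The other AT1 genes of the rule did not stand above all of the other cell types in this way. *Hopx* was at 77.9 and 43.5 CPM in AT2-gated cells against 71.4 to 348 and 28.4 to 373 CPM, *Pdpn* at 10.2 and 8.12 CPM against 24.9 to 68.9 and 3.82 to 57.0 CPM, and *Spock2* at 4.89 and 3.00 CPM against 1.56 to 15.3 and 2.10 to 15.2 CPM. *Igfbp2* was at 10.9 and 5.35 CPM, above endothelial, immune and mesenchymal cells (2.54 to 3.36 and 4.21 to 4.99 CPM) and below ciliated cells (50.7 and 61.1 CPM). Some of those cell types express these genes themselves, as mesenchymal and immune cells do *Pdpn*. A level in those cell types is therefore expression and free RNA together. How much of each co-expressing cell's AT1 RNA was free RNA was not tested.

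Sex-linked genes were counted as well. The study's methods describe male mice, but both libraries held cells with *Xist* and cells with Y-linked RNA, and the number and sexes of the animals pooled per library are not given in the sources used here. A UMI of each was found together in 1 of 33 WT (3.03%) and 20 of 469 KO co-expressing cells (4.26%, 2.62 to 6.51), against 4 of 390 (1.03%) and 114 of 4724 AT2-only cells (2.41%, 1.99 to 2.89). *Xist* was higher in co-expressing than in AT2-only cells of both libraries, at 588 CPM (484 to 709) against 342 CPM in WT and 625 CPM (602 to 648) against 426 CPM in KO. In WT 1 cell held 28.8% of the *Xist* UMIs, and without it the level was 436 CPM. In the 8 WT cells with 4 or more AT1 genes *Xist* was at 219 CPM (109 to 392), below the AT2-only level. The 4 Y-linked genes were at 117 against 136 CPM in WT and 30.5 against 77.1 CPM in KO. The KO AT1-only cells had 733 CPM of *Xist* and 33.0 CPM of Y-linked genes, and the KO Krt8-high cells 816 and 48.9 CPM. In WT these groups had 273 and 138 CPM, and 91.0 and 200 CPM. *Xist* was thus higher and Y-linked RNA lower beside AT2-only cells in KO, in AT1-only and Krt8-high cells as well as in co-expressing cells. The part of depth and of free RNA in these counts was not tested.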

How the data were processed

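For each of 2 libraries the authors deposited a matrix of raw UMI counts (genes by barcodes), not normalized. The matrix headers name Cell Ranger 5.0.0, the submitters' processing notes name Cell Ranger 3.1.0, STAR and GRCm38, and samples were grouped by the genotype label. How many animals each library pooled is not given in the sources used here.

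The members and gene lists were chosen with earlier results of these data known. Cells were gated with numpy 2.4.6 and scipy 1.17.1. UMIs were summed over the cells of a gate and divided by their total. Levels have exact Poisson, shares Clopper-Pearson and differences of shares Newcombe intervals (statsmodels 0.14.6), and log2 ratios the exact conditional interval, with 0.5 UMIs added to both sums where one was 0. Ratios needed at least 50 UMIs over the gates compared, except for single listed genes, whose UMIs are given where few. A floor of 3 UMIs was used for a sum of 0. No p-value was computed, since cells of 1 library are not replicates. Doublets were called with Scrublet in scanpy 1.11.5 at an expected 0.8% per 1000 cells and were not removed. The intervals were checked on simulated counts. Named genes were the listed ones and, among genes outside the rule with at least 50 UMIs in the members of each library, the 8 highest and 8 lowest over AT2-only cells, the 8 furthest above the 3 other gates and the 8 highest and lowest for KO over WT. Gene positions are those of GENCODE M21. The alternatives changed the thresholds, exclusion genes, cell filter, removal of cells that Scrublet called, thinning, denominator and scaling (TMM in edgeR 4.0.16). Barcodes outside the cell filter were left out.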

Additional observations from a re-analysis of the deposited data

Results flagged for a closer look

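The airway secretory genes went opposite ways in the genotypes. Their median log2 ratio of co-expressing over AT2-only cells was -2.97 in WT (2 genes compared) and 3.38 in KO (9 genes), a difference of 6.35 that was not tested. Without airway-marked cells in any group the medians were -0.55 in WT (1 gene) and -0.14 in KO (7 genes). Genes of this list were used to mark the cells, so the loss of the opposite directions was set in part by the removal. In KO the top 5 cells held 80.5% of these UMIs, and in WT the top 5 of 390 AT2-only cells held 91.4%.

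Hemoglobin genes differed by -6.10 between the genotypes on the same scale, from 4.30 in WT to -1.80 in KO, also not tested. In WT 1 cell held 99.2% of these UMIs, and without it the level was 11.1 CPM in place of 1325 CPM.

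The barcodes with 5000 or more genes, which the cell filter removed, also held such profiles. Of 303 in KO, 35 (11.6%) met the marker conditions, and of 99 in WT 0 did. In KO 59 of the 303 passed the AT2 gate.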

How the results depend on the processing

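The share of co-expressing cells followed its thresholds. With 2 AT1 genes required it was 27.9% of AT2-gated cells in WT and 26.9% in KO, with 4 genes 1.48% and 2.18%, and with 2 UMIs per gene 0.739% and 1.92%. Without exclusion genes it was 8.76% in WT, and with *Sftpc* at 10% or more it was 6.01% in KO. Thinned to 2000 UMIs it was 2.38% and 1.49%, and to 4000 UMIs 3.87% and 3.78%. The difference of KO minus WT was -1.28 points without exclusion genes.

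The UMI ratio to AT2-only cells was 1.57 in WT with 2 UMIs per gene. After thinning to 4000 UMIs it was 0.967 in WT (5754 and 5952.5 UMIs), below 1. In KO it was 1.25 with 2 genes, 1.51 with 4 genes, 1.49 with 2 UMIs per gene, 1.31 with mitochondrial UMIs under 10%, 1.20 after thinning to 2000 and 1.12 after thinning to 4000 UMIs.

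The number of genes 2-fold above all 3 other groups was 149 in WT and 78 in KO with 4 genes, 88 and 233 with a minimum of 20 UMIs, 16 in WT with TMM, and 94 in KO without airway-marked cells in any group, an alternative chosen after seeing the data. That removal also turned the KO medians of the ciliated and airway secretory lists to -0.71 and -0.14, the KO over WT median of ciliated genes to -0.97 (1 gene), and the KO calls of activated AT2 genes and lineage factors to 0. Ciliated and airway secretory genes marked the removed cells, so the shifts of these lists were set in part by the removal.

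With cells that Scrublet called removed, genes 2-fold higher over AT2-only cells in KO numbered 657 in place of 848, endothelial genes 0 of 6 in place of 2, and transitional genes 14 of 20 in place of 15. Genes 2-fold above all 3 other groups came to 105 in KO, and 2 of 24 AT1 genes were lower in KO over WT in place of 0.

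TMM scaling moved the median of all genes over AT2-only cells to -0.15 in WT and -0.02 in KO, with 88 higher and 401 lower in WT (184 and 259 before) and 661 and 163 in KO (848 and 90 before). AT1 genes 2-fold higher then numbered 9 of 20 and 14 of 24, and transitional genes 3 of 14 and 11 of 20. In KO over WT 1287 were higher and 209 lower (1085 and 353 before). No paired analysis was possible because each genotype had 1 library, so replicates could not be left out either. The 33 WT cells limit every WT value, and the cause of these shifts was not tested.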
